A study of Arabidopsis thaliana with 24 samples.

Results

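The plastid genome of Arabidopsis carries, beside the genes of the photosynthetic complexes, genes for a bacterial-type RNA polymerase, for ribosomal proteins and for a few enzymes and assembly factors. The transcripts described here are those of plastid genes whose symbol does not begin with psa, psb, pet, atp, ndh or rbcL and that had an array probe set carrying their gene and no other. Of the 16552 genes tested in all, 24 were of this kind. These were the 4 polymerase genes rpoA, rpoB, rpoC1 and rpoC2, the 7 small subunit genes rps2, rps4, rps14, rps15, rps16, rps18 and rps19, the 6 large subunit genes rpl14, rpl16, rpl20, rpl32, rpl33 and rpl36, and the 7 other genes accD, ccsA, cemA, clpP, matK, ycf3 and ycf4. Another 8 genes (rpl2, rpl22, rpl23, rps3, rps7, rps12, ycf1 and ycf2) lay only on probe sets that carry several genes, so they have no value here.

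RNA came from shoots and from roots of the line OX7.5 and of WT plants. OX7.5 overexpresses NBR1, a selective autophagy cargo receptor, as a fusion with a TAP tag under the constitutive 35S promoter of cauliflower mosaic virus, and was the only overexpressing line on the arrays. WT was the untransformed ecotype Col-0. Plants were 33 days old by the sample labels, and either spent their last 4 days in sulfur-deficient medium (-S, called low sulphate in the labels) or stayed in sufficient sulfur (nS). The 8 groups were thus OX7.5 -S, OX7.5 nS, WT -S and WT nS in each organ, with 3 biological replicates each and 24 arrays in all.

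Plastid transcription in plants is shared between the plastid-encoded polymerase, whose core subunits are the rpo products and which transcribes most photosynthesis genes, and nuclear-encoded phage-type enzymes, which transcribe the rpoB cluster and accD among others. The rps and rpl products are built into the plastid ribosome together with nuclear-encoded proteins, and every protein of the plastid genome is made on it. Sulfur deficit is known to make young leaves pale as chlorophyll is lost, and root plastids normally hold little or no chlorophyll.

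Values are log2 signals, and shoots and roots lay on different scales (array medians of 3.92 to 3.97 in shoots and of 2.58 to 2.63 in roots), so only differences within an organ were compared. All 24 transcripts were above the array median on each of the 12 arrays of both organs. A -S transcript is said to have risen or fallen where the limma adjusted p was under 0.05 over all 16552 genes. By their sample numbers the -S arrays and the nS arrays form separate runs, so any batch that went with these runs and the effect of -S cannot be told apart. In whole organs a smaller share of plastid-rich cells and less RNA per cell cannot be told apart either. In roots, the first nS replicate of WT stood apart. It was below both of its replicates for 13 of the 24 transcripts and above both for 9, and the median SD of the 24 was 0.343 in WT roots nS against 0.0666 to 0.19 in the other 3 root groups. For the 24, results that rest on this array are therefore given with and without it.

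In shoots, most polymerase transcripts and part of the ribosomal and other transcripts were lower in -S in both lines, and none passed the test in the other direction. In OX7.5 shoots 8 of the 24 fell (7.37% of all genes tested fell), and in WT shoots 9 fell (12.7% of all genes). Of these calls 7 were shared, namely rpoB, rpoC1, rpoC2, rps15, rps16, rps18 and matK, while rpl33 passed the test in OX7.5 alone and rps2 and ccsA in WT alone. All 24 differences were below 0 in both lines, although after cyclic loess scaling 18 of 24 were below 0 in each line and those that changed sign were small. The median difference was -0.28 in OX7.5 and -0.25 in WT, against medians of -0.000255 and -0.03 over all genes tested.

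Among the polymerase genes, rpoC2, which codes for the β″ subunit, had log2 signals of 9.91, 9.97 and 10.09 in OX7.5 -S shoots, against 10.66, 10.72 and 10.72 in OX7.5 nS shoots. In WT its signals were 9.89, 9.86 and 10.03 in -S shoots, against 10.65, 10.66 and 10.76 in nS shoots. Every -S array was below every nS array in each line, and the log2 fold change was -0.71 in OX7.5 (SE 0.15, limma adjusted p = 0.00148) and -0.76 in WT (SE 0.15, adjusted p = 0.000353). The β subunit gene rpoB had 9.55, 9.60 and 9.72 in OX7.5 -S shoots, against 10.24, 10.24 and 10.22 in OX7.5 nS shoots. In WT it had 9.63, 9.51 and 9.63 in -S shoots, against 10.29, 10.29 and 10.25 in nS shoots. These groups did not overlap either, with log2 fold changes of -0.61 in OX7.5 (SE 0.14, limma adjusted p = 0.00323) and -0.69 in WT (SE 0.14, adjusted p = 0.000591). The β′ subunit gene rpoC1, which lies between rpoC2 and rpoB on the map, fell as well, with log2 fold changes of -0.54 in OX7.5 and -0.60 in WT. The α subunit gene rpoA lies elsewhere, in a run of ribosomal protein genes. Its signals were 11.34, 11.24 and 11.35 in OX7.5 -S shoots against 11.65, 11.51 and 11.51 in OX7.5 nS shoots, without overlap, but the differences of -0.25 in OX7.5 and -0.18 in WT did not pass the test (limma adjusted p = 0.459 and 0.569).

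**Figure D1:**
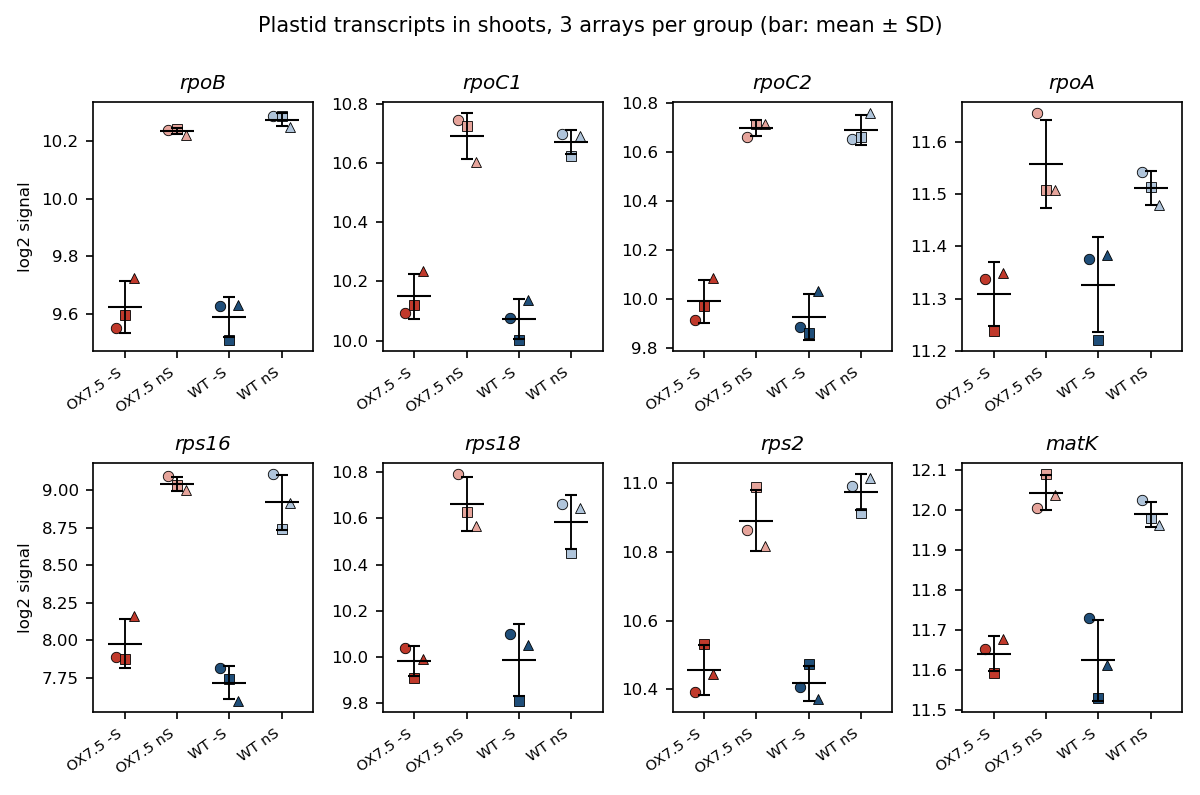
Log2 signal of 8 plastid transcripts in shoots, with 3 points per group for replicate 1 (circle), 2 (square) and 3 (triangle) and bars for mean ± SD; each panel has its own vertical range. The -S points lie below the nS points of the same line in all 8 panels, with the widest gap in rps16.

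The small subunit gene rps16 had the largest difference of the 24 in shoots of both lines. Its log2 signals were 7.89, 7.87 and 8.17 in OX7.5 -S shoots, against 9.09, 9.04 and 9.00 in OX7.5 nS shoots. In WT they were 7.82, 7.74 and 7.60 in -S shoots, against 9.11, 8.74 and 8.92 in nS shoots. The groups were far apart in both lines, with log2 fold changes of -1.07 in OX7.5 (SE 0.19, limma adjusted p = 0.000219) and -1.20 in WT (SE 0.19, adjusted p = 2.52e-05). Among the other small subunit genes, rps18 had 10.04, 9.91 and 9.99 in OX7.5 -S shoots, against 10.79, 10.63 and 10.57 in OX7.5 nS shoots. In WT it had 10.10, 9.81 and 10.05 in -S shoots, against 10.66, 10.45 and 10.64 in nS shoots. Again no -S array reached an nS array, with log2 fold changes of -0.68 in OX7.5 (SE 0.16, limma adjusted p = 0.00431) and -0.60 in WT (SE 0.16, adjusted p = 0.007). The fall of rps15 was smaller, with log2 fold changes of -0.50 in OX7.5 and -0.43 in WT. The gene rps2, which neighbours rpoC2, had 10.39, 10.53 and 10.44 in OX7.5 -S shoots, against 10.86, 10.99 and 10.82 in OX7.5 nS shoots. In WT it had 10.41, 10.47 and 10.37 in -S shoots, against 10.99, 10.91 and 11.02 in nS shoots. The arrays were apart in both lines, but the log2 fold change of -0.43 in OX7.5 was short of the threshold (limma adjusted p = 0.06) and that of -0.56 in WT was past it (adjusted p = 0.00875). The values of rps19 were -0.45 in OX7.5 and -0.42 in WT without passing the test, and those of rps4 and rps14 lay between -0.12 and -0.05.

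Of the 6 large subunit transcripts, 1 fell in OX7.5 shoots, and in WT none passed the test. That transcript, rpl33, had 10.04, 9.98 and 10.08 in OX7.5 -S shoots, against 10.70, 10.42 and 10.62 in OX7.5 nS shoots, a log2 fold change of -0.55 (SE 0.16, limma adjusted p = 0.0169). In WT its values were 10.19, 10.06 and 10.46 in -S shoots against 10.66, 10.64 and 10.61 in nS shoots, again without overlap, and the difference of -0.40 did not pass (adjusted p = 0.0666). It lies beside rps18, which fell in both lines. The remaining large subunit genes had differences between -0.32 and -0.01 over both lines.

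Among the other genes, matK, the maturase that helps to splice group II introns in plastid RNAs, had 11.65, 11.59 and 11.68 in OX7.5 -S shoots, against 12.00, 12.09 and 12.04 in OX7.5 nS shoots. In WT it had 11.73, 11.53 and 11.61 in -S shoots, against 12.02, 11.98 and 11.96 in nS shoots. The fall was clear of the spread in both lines, with log2 fold changes of -0.40 in OX7.5 (SE 0.12, limma adjusted p = 0.0199) and -0.37 in WT (SE 0.12, adjusted p = 0.0234). The gene ccsA, needed to attach haem to c-type cytochromes, had log2 fold changes of -0.48 in OX7.5 (limma adjusted p = 0.0502) and -0.47 in WT (adjusted p = 0.0377), so the values were alike on either side of the threshold. The catalytic protease subunit gene clpP, the photosystem I assembly genes ycf3 and ycf4, the envelope protein gene cemA, and accD, which codes for a subunit of the acetyl-CoA carboxylase of fatty acid synthesis, had differences between -0.16 and -0.01 in shoots.

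The plastid photosynthesis genes gave a different count in the same shoots. None of 39 passed the test in either line, and their median differences were -0.04 in OX7.5 and -0.02 in WT. In shoots the size of the fall went with the signal of the probe set. Across the 24 transcripts, the difference and the mean nS signal had a Pearson correlation of 0.89 in OX7.5 and 0.88 in WT (Spearman 0.82 and 0.74), with the dimmer probe sets falling more. The points of each line share their 6 arrays, and the nS arrays enter both measures. Over all 63 plastid genes the Pearson correlation was 0.71 in OX7.5 and 0.64 in WT. In roots the same correlation was weak, at -0.27 in OX7.5 and -0.05 in WT across the 24 and at -0.09 in OX7.5 and -0.07 in WT over all 63. Among the photosynthesis genes the dimmest in nS shoots, psbN, psbM and psbT (means of 9.65 to 10.85), did not move alike. Their log2 fold changes were 0.37, -0.56 and -0.35 in OX7.5 shoots and 0.49, -0.23 and -0.03 in WT shoots. The highest signals of the shoot arrays were 13.1 to 13.3, and whether probe sets close to that could have shown a fall of the same size was not tested.

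**Figure D2:**
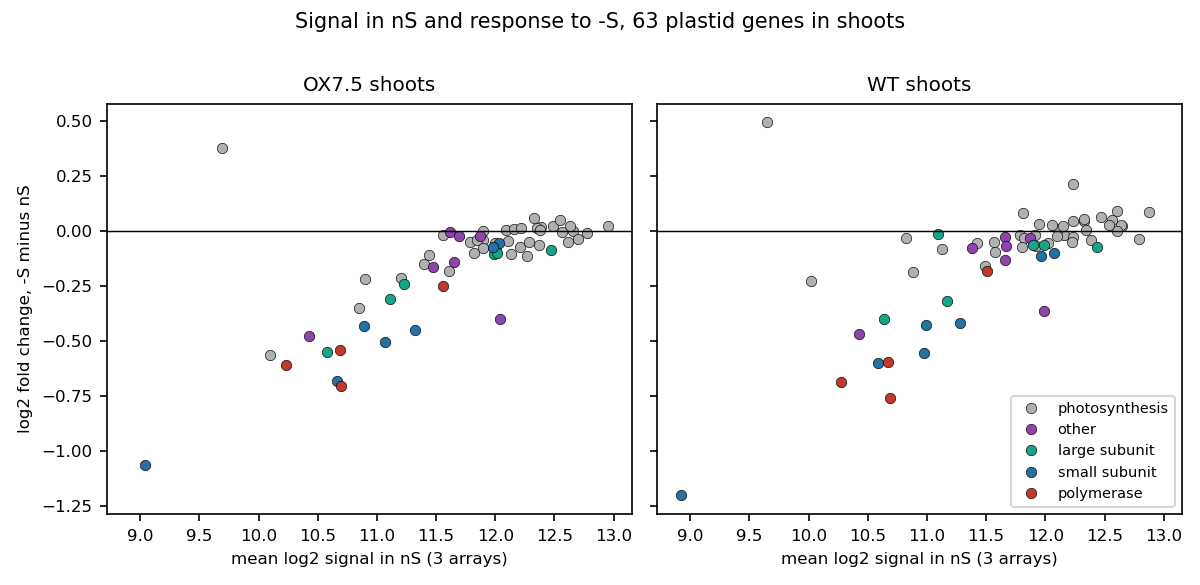
Log2 fold change (-S minus nS) against mean log2 signal in nS for 63 plastid genes in shoots of OX7.5 (left) and WT (right), coloured by role. The largest falls sit at the dimmer end, led by rps16 at -1.07 in OX7.5 and -1.20 in WT, and the brightest probe sets lie near 0.

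Of 31 nuclear green-tissue genes listed, 4 had a probe set of their own (PRK, RCA, LHCB4.1 and LHCB4.2). In OX7.5 shoots 1 of the 4 fell, PRK by 0.69 on the log2 scale, and in WT shoots 3 fell, namely PRK by 0.69, RCA by 0.54 and LHCB4.2 by 0.88. The others had differences of -0.33 for RCA, -0.40 for LHCB4.2 and -0.46 for LHCB4.1 in OX7.5 and of -0.40 for LHCB4.1 in WT (limma adjusted p = 0.157, 0.245, 0.0562 and 0.0762). The summed log2 signal of the 4 was 35.2 to 36.5 in OX7.5 -S shoots, against 37.6 to 37.8 in OX7.5 nS shoots, and 35.4 to 35.7 in WT -S shoots, against 37.4 to 38.5 in WT nS shoots. Their part in the fall of the plastid transcripts was not tested.

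In roots the lines gave different counts. In OX7.5 roots 6 of the 24 fell and none rose (9.89% of all genes fell). In WT roots 4 fell (10.1% of all genes) and 5 rose (12.5% of all genes). The calls rps14, accD and ycf3 were shared, cemA, matK and ycf4 fell in OX7.5 alone, and rpl33 fell and rpoB, rpoC1, rpoC2, rpl14 and rpl36 rose in WT alone. With cyclic loess scaling the WT split was 1 rise and 6 falls. Without the first nS replicate, 4 of the 24 were called in WT roots (16.7%, against 18.4% of all genes), with rises of rpoB and rps16 and falls of rps14 and ycf3. In OX7.5 roots 9 then fell, because that array also enters the shared estimate of the spread.

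The polymerase genes rpoB, rpoC1 and rpoC2, which fell in WT shoots, rose in WT roots. For rpoB the log2 signals were 6.85, 6.75 and 6.60 in WT -S roots, against 5.68, 6.34 and 6.24 in WT nS roots. The groups did not overlap, and the log2 fold change was 0.65 (SE 0.14, limma adjusted p = 0.00121). Without the first nS replicate it was 0.45 (SE 0.12, adjusted p = 0.0127), and it was 0.47 after cyclic loess scaling. For rpoC2 the signals were 8.05, 7.91 and 7.89 in WT -S roots, against 6.96, 7.59 and 7.74 in WT nS roots, a rise of 0.52 (adjusted p = 0.0123) that became 0.29 without the first nS replicate and no longer passed (adjusted p = 0.123). The rise of rpoC1 was 0.34 (adjusted p = 0.0441) and became 0.20 without that array (adjusted p = 0.264), while rpoA, with a difference of 0.40, did not pass with it (adjusted p = 0.139) and was at 0.04 without it. After cyclic loess scaling the differences of rpoC1 and rpoC2, 0.15 and 0.34, did not pass the test.

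In OX7.5 roots none of the 4 polymerase genes passed the test. The signals of rpoB were 6.37, 6.60 and 6.74 in OX7.5 -S roots, against 6.57, 6.60 and 6.62 in OX7.5 nS roots, overlapping groups with a log2 fold change of -0.03 (SE 0.14, limma adjusted p = 0.941). Those of rpoC2 were 7.61, 7.73 and 7.93 in OX7.5 -S roots, against 8.11, 7.97 and 7.99 in OX7.5 nS roots. Here every -S array was lower, but the difference of -0.26 did not pass (adjusted p = 0.256). For rpoC1 and rpoA the differences were -0.26 and -0.39 (adjusted p = 0.139 and 0.173).

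**Figure D3:**
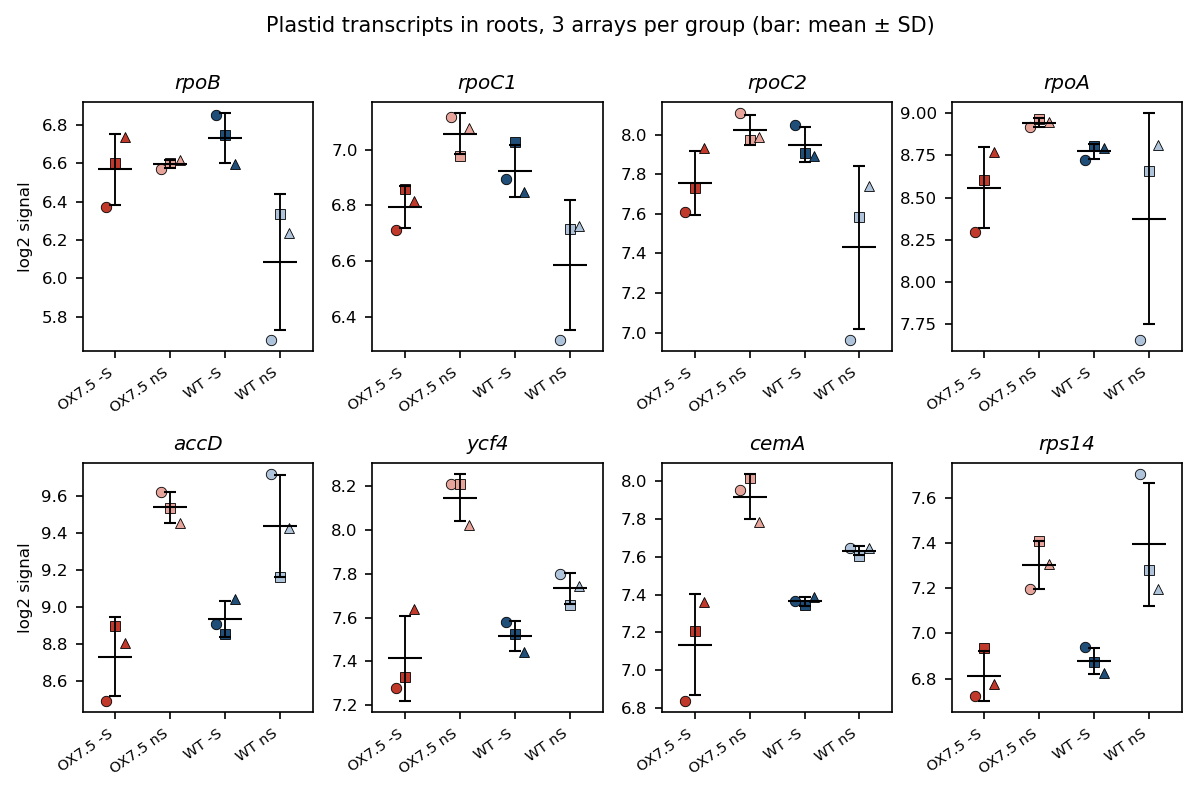
Log2 signal of 8 plastid transcripts in roots, with 3 points per group for replicate 1 (circle), 2 (square) and 3 (triangle) and bars for mean ± SD; each panel has its own vertical range. Replicate 1 of WT nS is far below its replicates in the 4 rpo panels (for rpoB at 5.68, against 6.34 and 6.24) and above them in rps14, while accD, ycf4 and cemA are lower in -S than in nS in both lines.

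The falls in OX7.5 roots were largest in accD, cemA and ycf4, which lie close together on the map with psaI between accD and ycf4 and petA beyond cemA. The carboxylase gene accD had 8.50, 8.90 and 8.81 in OX7.5 -S roots, against 9.62, 9.53 and 9.46 in OX7.5 nS roots, a log2 fold change of -0.80 (SE 0.14, limma adjusted p = 9.31e-05). In WT its signals were 8.91, 8.86 and 9.04 in -S roots, against 9.72, 9.16 and 9.43 in nS roots, a log2 fold change of -0.50 (SE 0.14, adjusted p = 0.00868) that became -0.36 without the first nS replicate (adjusted p = 0.0715). The groups were apart in both lines. The envelope protein gene cemA had 6.84, 7.21 and 7.36 in OX7.5 -S roots, against 7.95, 8.01 and 7.79 in OX7.5 nS roots (-0.78, SE 0.12, adjusted p = 3.51e-05). Its WT signals were 7.36, 7.34 and 7.39 in -S roots, against 7.65, 7.60 and 7.65 in nS roots, apart from each other by a difference of -0.27 that did not pass (adjusted p = 0.128). The photosystem I assembly gene ycf4 had 7.28, 7.33 and 7.64 in OX7.5 -S roots, against 8.21, 8.21 and 8.02 in OX7.5 nS roots (-0.73, SE 0.11, adjusted p = 2.57e-05), while its difference in WT roots was -0.22 (adjusted p = 0.183). Their photosynthesis neighbours had log2 fold changes of -0.56 for psaI and -0.77 for petA in OX7.5 roots, and of -0.69 for psaI and -0.05 for petA in WT roots.

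Further transcripts that fell in OX7.5 roots were matK, rps14 and ycf3. For matK the signals were 8.21, 8.42 and 8.41 in OX7.5 -S roots, against 8.96, 8.85 and 8.86 in OX7.5 nS roots, a log2 fold change of -0.54 (SE 0.12, limma adjusted p = 0.00133). For rps14 they were 6.72, 6.94 and 6.78 in OX7.5 -S roots, against 7.20, 7.41 and 7.31 in OX7.5 nS roots, a log2 fold change of -0.49 (SE 0.12, adjusted p = 0.00539). The log2 fold change of ycf3 was -0.39 (adjusted p = 0.00738), and the groups of all 3 were apart. In WT, rps14 had 6.94, 6.88 and 6.82 in -S roots, against 7.70, 7.28 and 7.20 in nS roots, with a log2 fold change of -0.51 (adjusted p = 0.00343) or, without the first nS replicate, of -0.36 (adjusted p = 0.0328). The log2 fold change of ycf3 in WT roots was -0.46 with that array and -0.40 without it, and it passed the test both ways. These 2 transcripts were thus lower in -S roots of both lines whether or not the array was used. Of the large subunit genes, rpl36 rose by 0.41, rpl14 rose by 0.46 and rpl33 fell by 0.48 in WT roots. The signals of rpl14 were 10.04, 10.08 and 10.28 in WT -S roots, against 9.18, 9.80 and 10.05 in WT nS roots. These groups overlapped. The signals of rpl33 were 7.42, 7.22 and 7.62 in WT -S roots, against 8.33, 7.65 and 7.72 in WT nS roots, close but apart (log2 fold change -0.48, SE 0.16, adjusted p = 0.0289). None of the 3 genes passed without the first nS replicate. The gene rps16, the one that fell most in shoots, had 4.95, 5.43 and 5.17 in OX7.5 -S roots, against 5.13, 4.70 and 4.64 in OX7.5 nS roots. In WT it had 5.33, 5.25 and 5.14 in -S roots, against 5.42, 4.66 and 4.49 in nS roots. The groups overlapped in both lines, and the differences of 0.36 in OX7.5 and 0.38 in WT did not pass the test (adjusted p = 0.206 and 0.156). The WT difference without the first nS replicate was 0.66 (adjusted p = 0.00522).

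**Figure D4:**
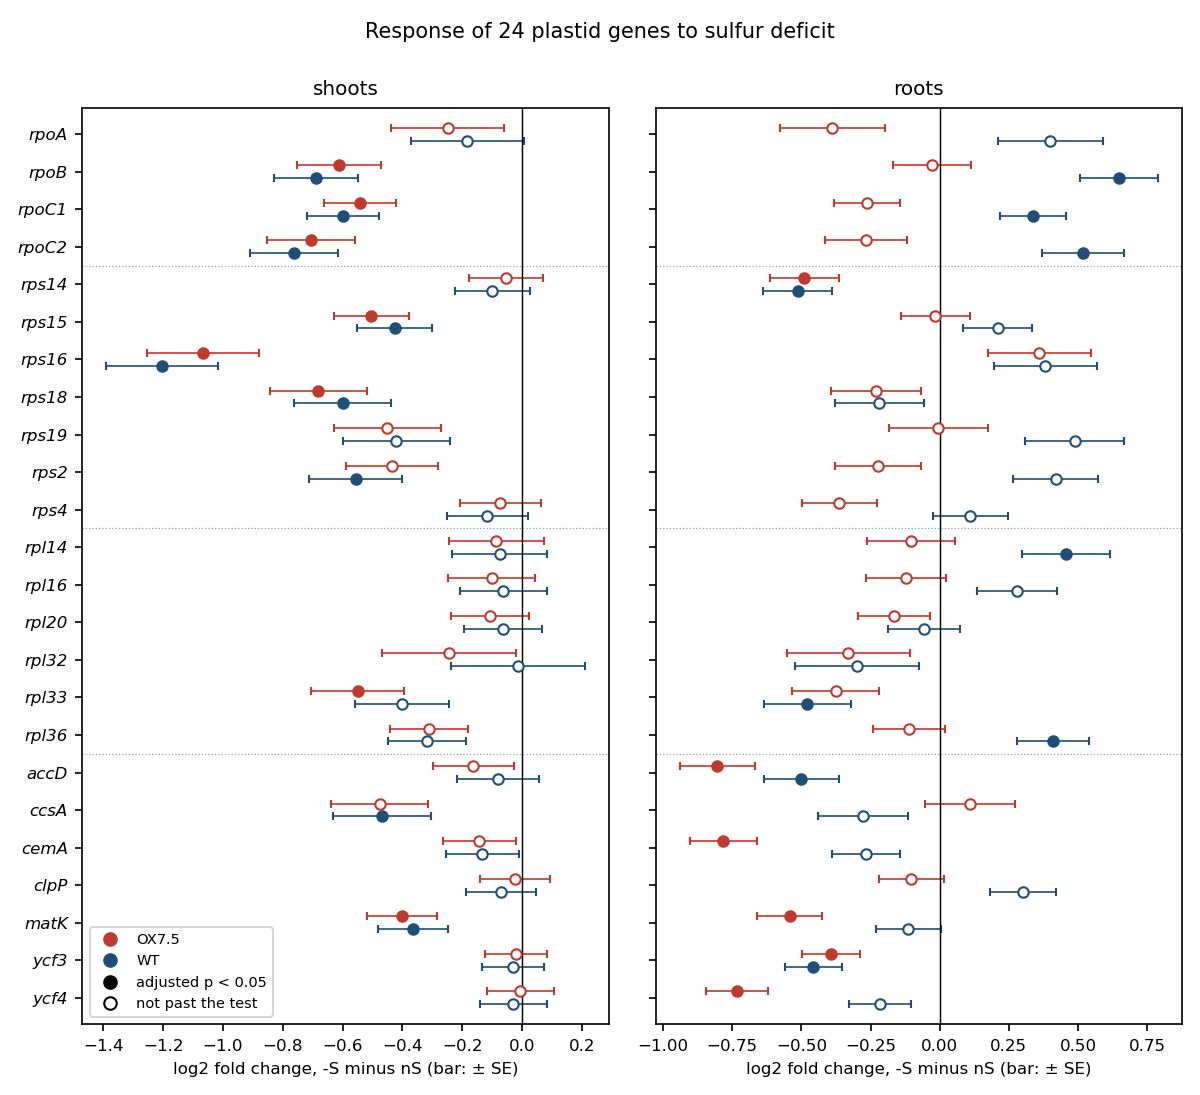
Log2 fold change (-S minus nS) with its SE for the 24 plastid transcripts in shoots (left) and roots (right), OX7.5 in red above WT in blue, with filled points for an adjusted p under 0.05 and dotted lines between polymerase, small subunit, large subunit and other genes. In shoots both lines lie on the same side of 0 throughout, whereas in roots the polymerase genes lie right of 0 in WT (0.34 to 0.65) and left of it in OX7.5 (-0.39 to -0.03).

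The photosynthesis genes of the plastid also moved in roots. In OX7.5 roots 27 of 39 fell and none rose, with a median difference of -0.50 against -0.25 for the 24. In WT roots 13 of 39 fell and 2 rose, with a median of -0.18 against 0.16 for the 24. When the first nS replicate of WT was left out, 8 of the 39 fell in WT roots and none rose, with a median of -0.12 against 0.03 for the 24. After cyclic loess scaling the median of the 24 in WT roots was -0.01. Along the map, low values of OX7.5 roots covered the stretch that holds accD, psaI, ycf4, cemA and petA and the psb and pet genes after it, whereas rpoB, rps15 and rps19 lay close to 0. Low values were also found before this stretch, at -1.11 for psbZ, -0.81 for psbM and -0.73 for rbcL. Among the genes after petA, rpl20 and clpP had -0.16 and -0.10. Of the green-tissue markers, PRK and LHCB4.2 were above the array median on 0 of 12 root arrays, RCA on 1 and LHCB4.1 on all 12, the last with signals of 2.85 to 3.69. The summed log2 signal of the 4 was 7.51 to 8.88 in OX7.5 -S roots, against 8.71 to 8.85 in OX7.5 nS roots, and 7.48 to 9.17 in WT -S roots, against 7.87 to 8.29 in WT nS roots. With all arrays used, RCA fell in roots by 0.48 in OX7.5 and 0.44 in WT (limma adjusted p = 0.0223 and 0.0339). The differences of PRK, LHCB4.1 and LHCB4.2 were 0.28, -0.35 and -0.21 in OX7.5 roots and 0.07, 0.29 and 0.16 in WT roots. None of these passed the test.

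**Figure D5:**
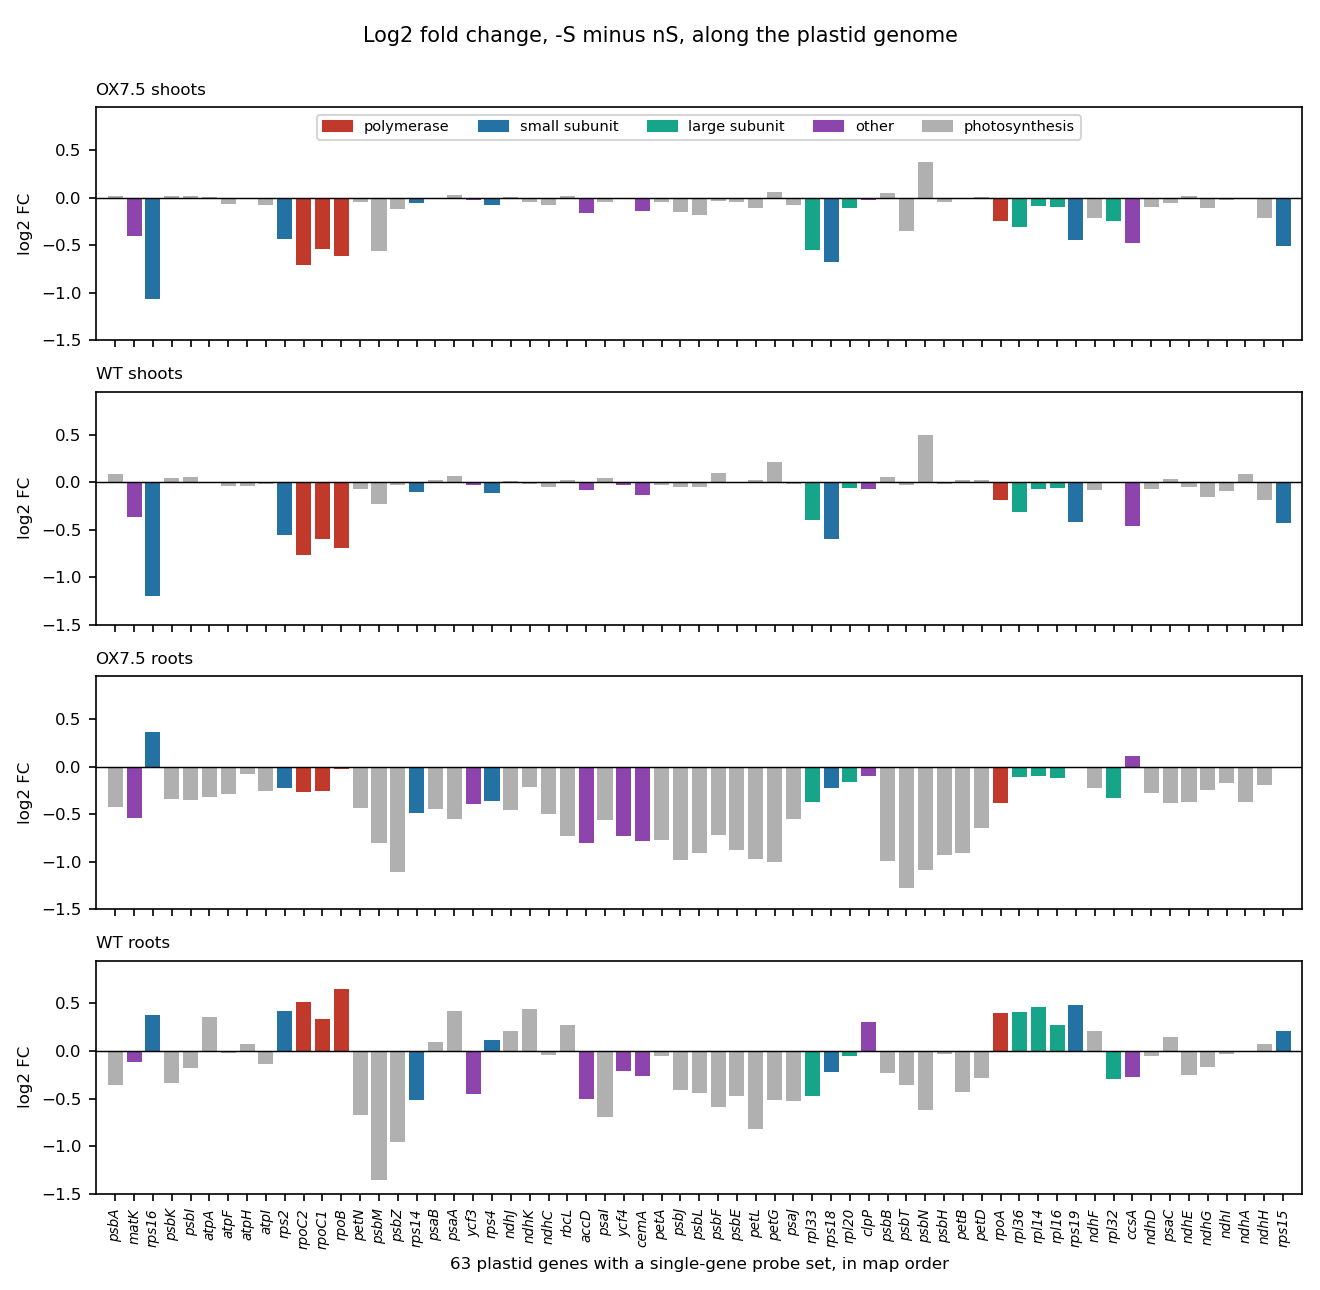
Log2 fold change (-S minus nS) of 63 plastid genes in map order, one panel per line and organ, coloured by role with photosynthesis genes in grey. In shoots the downward bars belong mostly to coloured genes, in OX7.5 roots grey bars reach -1.28 and all 4 polymerase bars lie below 0, and in WT roots the polymerase bars point up (0.34 to 0.65).

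The difference between the organs was tested directly as the -S response in roots minus that in shoots. In OX7.5 2 of the 24 differed upwards (7.88% of all genes) and 3 downwards (8.48% of all genes). In WT 8 differed upwards (12.1% of all genes) and 1 downwards (10.3% of all genes). In OX7.5 the upward ones were rps16, by 1.43 (SE 0.26, limma adjusted p = 0.000465), and rpoB, by 0.59 (SE 0.20, adjusted p = 0.045), and the downward ones were ycf4, cemA and accD. In WT the largest were rps16, by 1.58 (SE 0.26, adjusted p = 9.79e-05), rpoB, by 1.34 (SE 0.20, adjusted p = 2.64e-05), and rpoC2, by 1.28 (SE 0.21, adjusted p = 8.2e-05). Without the first nS replicate of WT roots these 3 were 1.87, 1.14 and 1.05, and each still passed. Next in size was rps2, by 0.98 (SE 0.22, adjusted p = 0.00202), whose root signals were 8.29, 8.19 and 8.31 in WT -S, against 7.40, 7.98 and 8.15 in WT nS. In OX7.5 roots rps2 had 7.81, 8.10 and 8.40 in -S, against 8.35, 8.36 and 8.27 in nS. The root groups were thus apart in WT and overlapped in OX7.5, and neither root difference alone, -0.22 in OX7.5 and 0.42 in WT, passed the test. The WT values of rps2 without the first nS replicate were 0.20 in roots and 0.75 for the organ difference (adjusted p = 0.00533).

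Next the lines were compared at the same sulfur supply. In shoots none of the 24 passed the test, neither in -S (0.0785% of all genes did) nor in nS (1.7%), and none had an unadjusted p under 0.05. The 95% confidence intervals of the OX7.5 minus WT difference lay within -0.55 to 0.64 in -S shoots and within -0.40 to 0.60 in nS shoots over the 24, so differences larger than these were not seen while smaller ones could not be told from the spread. In -S roots none passed, as for all genes tested (0%), and none had an unadjusted p under 0.05. In nS roots none passed either (0.852% of all genes), but 14 of the 24 had an unadjusted p under 0.05, against 13.9% of all genes. When the first nS replicate of WT was left out, 6 of the 24 did, against 8.51% of all genes.

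Of the 4 roles, the polymerase genes had the largest median difference in nS roots, 0.54. For rpoC2 the signals were 8.11, 7.97 and 7.99 in OX7.5 nS roots, against 6.96, 7.59 and 7.74 in WT nS roots, a difference of 0.59 (95% interval 0.29 to 0.90, limma adjusted p = 0.0559). For rpoC1 they were 7.12, 6.98 and 7.08 in OX7.5 nS roots, against 6.32, 6.72 and 6.73 in WT nS roots, a difference of 0.47 (95% interval 0.22 to 0.72, adjusted p = 0.0602). The differences of the 4 polymerase genes were 0.47 to 0.59, and none of the 4 passed the test. For each of them the first nS replicate of WT was below both of its replicates. Without the first nS replicate of WT the median difference of the 4 was 0.32, and none passed. In -S roots the 4 polymerase genes had differences of -0.22 to -0.13 between OX7.5 and WT. Of the 39 plastid photosynthesis genes, 4 passed as higher in OX7.5 nS roots, with a median of 0.17 (0.852% of all genes passed in either direction). With the first nS replicate of WT left out, 3 of the 39 passed as higher, with a median of 0.31 (0.145% of all genes in either direction).

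The response to -S was then compared between the lines, as the response of OX7.5 minus that of WT. In shoots none of the 24 differed (0.538% of all genes did) and none had an unadjusted p under 0.05. In roots none differed at an adjusted p under 0.05 (0.0604% of all genes did), and 12 had an unadjusted p under 0.05, against 9.64% of all genes (10 without the first nS replicate of WT, against 6.86%). The 4 polymerase genes had differences of -0.79 for rpoA, -0.68 for rpoB, -0.60 for rpoC1 and -0.78 for rpoC2, the last with a 95% interval of -1.22 to -0.35 (limma adjusted p = 0.236). Without the first nS replicate of WT they were -0.43, -0.47, -0.46 and -0.55, and the adjusted p of rpoC2 was 0.444. The test of the difference thus did not separate the lines in the response of any of the 24.

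The methods counted a DEG at 1.5-fold or more with p under 0.05, here taken without adjustment. By these thresholds 4 of the 24 were -S DEGs in OX7.5 shoots (12.2% of all genes), namely rpoB, rpoC2, rps16 and rps18. In WT shoots 5 were (18.7% of all genes), the same 4 and rpoC1. In OX7.5 roots accD, cemA and ycf4 were (15.6% of all genes), and in WT roots rpoB alone (17.2%). Between OX7.5 and WT in nS roots rpoC2 was (3.24%), and 5 passed for the difference of responses in roots (5.38% of all genes), namely the 4 polymerase genes and rps2. With the first nS replicate of WT left out, none of the 24 passed in either of these comparisons (2.02% and 3.72% of all genes), and in WT roots rps16 passed, at 0.66, and rpoB, at 0.45, did not (16% of all genes).

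Nuclear genes whose products work with these plastid gene products were read from lists of 74 loci, of which 18 had a probe set of their own. In OX7.5 shoots 10 of the 18 fell and 1 rose (7.37% and 7.78% of all genes), and in WT shoots 15 fell and 1 rose (12.7% and 11.8%). In OX7.5 roots 3 fell and 2 rose (9.89% and 10.5%), and in WT roots 1 fell and 4 rose (10.1% and 12.5%). These root counts and the root values of nuclear genes below include the first nS replicate of WT and are not given without it. The plastid Clp protease, whose catalytic core holds the clpP product, had 3 of 7 measured nuclear genes fall in OX7.5 shoots and 6 of 7 in WT shoots. Among them CLPP4, a core subunit, had log2 fold changes of -0.62 in OX7.5 shoots and -0.53 in WT shoots. The largest falls in WT shoots were those of AT1G68660 and AT4G12060, with log2 fold changes of -0.75 and -0.73. AT1G09130 did not pass in shoots (-0.09 in OX7.5 and -0.08 in WT), rose by 0.70 in WT roots and did not pass in OX7.5 roots (0.30). HSP93-III, a chaperone of the Clp family, had values of -0.38 (not past the test) in OX7.5 shoots and -0.58 in WT shoots. It rose by 0.84 in WT roots, and its value of 0.36 in OX7.5 roots did not pass the test (limma adjusted p = 0.116).

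Of 7 loci listed with the acetyl-CoA carboxylase 3 were measured, AT1G52670, AT3G15690 and AT3G56130, and these fell in shoots of both lines. Their log2 fold changes were -0.69 to -0.61 in OX7.5 and -0.80 to -0.45 in WT, in shoots where accD itself did not pass the test. The listed loci AT5G16390, AT5G15530, AT5G35360 and AT2G38040 had no value here, so the falls do not stand for the enzyme as a whole. Of the 3 measured genes of plastid RNA processing, CFM3A, a splicing factor, had log2 fold changes of -0.92 in OX7.5 shoots and -1.19 in WT shoots. WTF1, a splicing factor first known from maize, fell in both, with log2 fold changes of -0.64. CAF1, which acts in group II intron splicing, fell by 0.69 in WT shoots and rose by 0.73 in WT roots. Its root signal was low, with WT means of 3.23 in -S and 2.50 in nS against root array medians of 2.58 to 2.63. Its values of -0.36 in shoots and 0.16 in roots of OX7.5 did not pass the test. The list of sigma factors and phage-type polymerases had 1 measured locus of 9, AT5G15700. It rose in -S by 0.52 in OX7.5 shoots, 0.39 in WT shoots, 0.54 in OX7.5 roots and 0.80 in WT roots. None of 13 listed polymerase-associated proteins was measured.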

How the data were processed

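Affymetrix Arabidopsis Gene 1.1 ST arrays were hybridized with RNA from shoots and roots, 3 biological replicates in each of 8 groups. The authors deposited log2 signals per probe set from RMA, run in Partek (versions not given in the sources used here). RMA levels arrays to a common distribution, so a change shared by most transcripts would not be seen, and the signals carry no sequencing depth, so the number of arrays limits the precision. A sample with no low sulphate in its labels was taken as nS. Growth was in soil by the labels and in hydroponic boxes by the methods. NBR1 has no probe set of its own in the annotation, so its overexpression could not be checked here.

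Probe sets were named from the platform annotation and a gene table of TAIR10.1. Exactly 1 gene stood on 16746 of the 28583 probe sets, and the brightest of a gene was kept (16552 genes). With R 4.3.3 and limma 3.58.1, a model with a mean for each group was fitted over the 24 arrays (16 residual degrees of freedom, empirical Bayes moderation), with Benjamini-Hochberg adjustment over all genes, and checked on simulated data. All plastid genes chosen by the rule were named, with values per array for up to 3 rises and 3 falls in each -S contrast and others that clarify them. The genes and the nuclear lists were chosen with earlier results of these data known. Alternatives were an organ fitted alone, a replicate block, the thresholds of the methods, the mean of probe sets, dim genes left out, a variance trend, cyclic loess, every probe set tested, and each array left out. The counts at an unadjusted p and by the thresholds of the methods without the first nS replicate of WT roots were added after seeing the data.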

Additional observations from a re-analysis of the deposited data

Results flagged for a closer look

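For 14 results the response to -S differed between the organs by a test of the difference itself (roots minus shoots, limma, adjusted p under 0.05). In OX7.5 these were rps16 at 1.43, rpoB at 0.59, accD at -0.64, cemA at -0.64 and ycf4 at -0.73. In WT they were rps16 at 1.58, rpoB at 1.34, rpoC2 at 1.28, rps2 at 0.98, rpoC1 at 0.94, rps19 at 0.91, rpl36 at 0.73, rps15 at 0.64 and ycf3 at -0.43. The call of ycf3 in WT was lost in 9 of the 24 fits that left out 1 array, among them the fit without the first nS replicate of WT roots, in which rps18 passed in WT with a difference of 0.60 and ccsA, rps15 and rps14 passed in OX7.5 with differences of 0.59, 0.49 and -0.44. The call of rpoB in OX7.5 was lost in 16 of the 24, with values of 0.50 to 0.68 throughout. That of accD was lost in 3 of them.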

How the results depend on the processing

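No called direction reversed under any alternative. By the thresholds of the methods the called transcripts numbered 4 in OX7.5 shoots, 5 in WT shoots, 3 in OX7.5 roots, 1 in WT roots, 1 for OX7.5 minus WT in nS roots and 5 for the difference of responses in roots. With root arrays fitted alone 5 were called in WT roots. With dim genes left out, and with a variance trend, 4 were called for OX7.5 minus WT in nS roots, and with the trend 8 for the organ difference in OX7.5. Cyclic loess turned the WT root split of 5 rises and 4 falls into 1 and 6, and the organ difference in WT from 8 upward and 1 downward into 7 and 4, in OX7.5 from 2 and 3 into 1 and 5.

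Leaving out 1 array at a time gave 6 to 8 calls in OX7.5 shoots, 6 to 9 in WT shoots, 6 to 9 in OX7.5 roots and 4 to 14 in WT roots (4 without nS replicate 1 or -S replicate 1 of WT, 14 without nS replicate 3). It gave 0 to 8 for OX7.5 minus WT in nS roots (8 without WT nS replicate 3), 0 to 1 for the difference of responses in roots, 3 to 8 for the organ difference in OX7.5 (3 without OX7.5 shoots nS replicate 3 or OX7.5 roots nS replicate 1, 8 without WT roots nS replicate 1) and 8 to 13 in WT, and 0 elsewhere. In WT roots only rpoB, rps14 and ycf3 passed in all 12 such fits. Within an organ, same-numbered replicates of different groups showed little shared deviation (correlations of -0.24 to 0.14 in shoots and -0.08 to 0.11 in roots). Shoot arrays were not compared with root arrays of the same number, so pairing between the organs was not tested. The main fit, and with it the organ difference, treated all arrays as independent. A replicate block gave 9, 9, 6 and 10 calls in OX7.5 shoots, WT shoots, OX7.5 roots and WT roots.

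The 3 arrays per group limit all results, and without detection calls a low root signal has no stated limit. Organ differences compare fold changes from arrays whose medians and ranges differ between the organs, and whether the organs were scaled together is not given in the sources used here.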
